A study of Mus musculus with 3 samples.

Results

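The galectins are described here with the galectin-3 binding protein in SB28, a transplantable mouse glioblastoma cell line on the C57BL/6 background, grown from a brain tumour that was induced by transposon transfer of oncogenes. The members were taken by gene symbol: 8 galectins (Lgals1, Lgals2, Lgals3, Lgals4, Lgals7, Lgals8, Lgals9 and Lgals12) and Lgals3bp, 9 of the 24421 gene lines of the count tables. The study sequenced RNA of 1 group, SB28, in 3 replicate libraries made from 1 µg of total RNA each, with brain given as the source. The labels name no control, treatment, time, passage or culture, and do not say whether separate cultures were used, so SDs and p-values measure only the spread between these libraries, which may be technical. With 1 group, the comparisons open to the data are between genes and between libraries.

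Galectins are lectins that bind galactose-containing sugar chains through a conserved carbohydrate recognition domain. Galectin-1, galectin-2 and galectin-7 carry a single such domain and can pair with themselves, galectin-3 joins its domain to a proline- and glycine-rich tail through which it can assemble into larger complexes, and galectins 4, 8, 9 and 12 carry domains in tandem. They are made in the cytosol, leave the cell by an unconventional route, cross-link glycoproteins on cell surfaces and matrix, and also act inside cells on damaged membranes. In glioma, galectin-1 and galectin-3 are known for roles in migration and in restraint of T cells. Lgals3bp encodes a secreted, heavily glycosylated protein that binds galectin-3.

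Reads assigned to genes numbered 36019009, 28990128 and 32632858 in replicates 1, 2 and 3. Replicate 3 stood apart. In a chi-square test of counts, replicates 1 and 2 differed in 2.01% of 12746 genes, with a median chi-square of 0.691 per gene against 0.455 under counting noise, so they were close to each other but not the same within sampling noise. Replicate 3 differed from replicate 1 in 64.0% of genes and from replicate 2 in 62.8%. Values below follow the order 1, 2, 3, so the first and second values of each series are also the result without replicate 3. The tissue label was set beside marker genes, which went with it only in part. Vim, Nes and Sox2, taken here as markers of neural progenitor and glioma cells, stood at 5404 ± 100.1, 427 ± 20.2 and 113 ± 2.85 counts per 1000000 (CPM, mean ± SD, n = 3). Sox9 and S100b of the same list were lower, at 27.3 ± 5.88 and 4.26 ± 1.22 CPM. Gfap of astrocytes and Olig2 of the oligodendrocyte lineage had 0 counts, for which the limit in the least deep library is 0.103 CPM. Of 5 endothelial markers, Cdh5 stood at 380, 371 and 303 CPM, close to Nes. Kdr stood at 1.11, 1.07 and 2.64 CPM and Tek at 1.08, 0.966 and 0.552 CPM, while Pecam1 had 6 counts and Cldn5 had 0.

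Sequence before the RefSeq start is shown for Lgals3, Lgals3bp and Lgals9, the members that varied between libraries beyond counting noise and had a promoter at hand. RefSeq promoters of GRCm38.p6, the build family of the mm10 files, were at hand for 7 of the 9 members. Each line gives the bases before the RefSeq start that lie outside every annotated exon of the gene, so the lines stop short of the start. For Lgals3, Lgals3bp and Lgals9, the last 47, 133 and 22 of the 250 bases before the start are annotated exon and are not shown. Capitals mark the only match in the printed stretches to 5 motifs searched on both strands. The stretches are chr14:47373610-47373812 on the plus strand (203 bases), chr11:118402093-118402209 on the minus strand (117 bases) and chr11:78984947-78985174 on the minus strand (228 bases). The Lgals3 stretch lies inside the longer gene model of the GENCODE annotation, between its exons and before an internal start.
Lgals3: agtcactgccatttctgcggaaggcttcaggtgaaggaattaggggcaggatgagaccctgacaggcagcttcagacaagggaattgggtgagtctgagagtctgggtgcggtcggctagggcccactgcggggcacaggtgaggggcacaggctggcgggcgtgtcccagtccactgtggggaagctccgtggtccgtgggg
Lgals3bp: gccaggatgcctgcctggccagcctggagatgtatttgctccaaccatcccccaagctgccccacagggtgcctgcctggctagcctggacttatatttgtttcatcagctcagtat
Lgals9: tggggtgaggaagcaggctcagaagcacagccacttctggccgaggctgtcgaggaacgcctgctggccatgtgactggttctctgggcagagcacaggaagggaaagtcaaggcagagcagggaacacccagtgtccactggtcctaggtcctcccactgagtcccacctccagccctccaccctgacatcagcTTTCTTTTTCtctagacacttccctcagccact
The capitals in the Lgals9 line are TTTCTTTTTC, 55 to 46 bases before the start. They match, on the minus strand, the core of the interferon-stimulated response element, searched as GAAA, any 2 bases and GAAA. This core was present in 2.98% of 32851 promoter windows of 250 bases. The other motifs searched were GAS (TTCNNNGAA, 7.02% of windows), the AP-1 site (TGANTCA, 6.75%), the GC box (GGGCGG, 32.7%) and the TATA box (TATAAA, 12.4%). In the whole window of 250 bases, Lgals3 had 1 GC box, 7 to 2 bases before the start and on the minus strand, and Lgals3bp had no match. A match describes these letters and not a bound factor, and the lack of one says only that the letters are not in this window.

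Lgals1, encoding galectin-1, had the highest level of the 9 members in every library. Detection meant at least 1 CPM in every library. Of the 9 members, 5 were detected (Lgals1, Lgals3, Lgals9, Lgals3bp and Lgals8), against 46.6% of all gene lines, so the share of members detected lay near the background. Lgals7 crossed the threshold in 2 libraries, and Lgals2, Lgals4 and Lgals12 lay below it in all 3, as did 51.3% of all gene lines. The median of log2(CPM per kb + 1) was 3.17 over the 9 members and 0.29 over all genes with a length, where CPM per kb is CPM divided by the length of the gene's exons. The second median takes in the many genes below the threshold. Lgals8, the middle member, exceeded only 50.9% of detected protein-coding genes in CPM per kb. The 8 galectins together took 2742, 2683 and 2679.6 CPM, or 0.274%, 0.268% and 0.268% of assigned counts, and this total differed little between libraries while its makeup did.

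**Figure D1:**
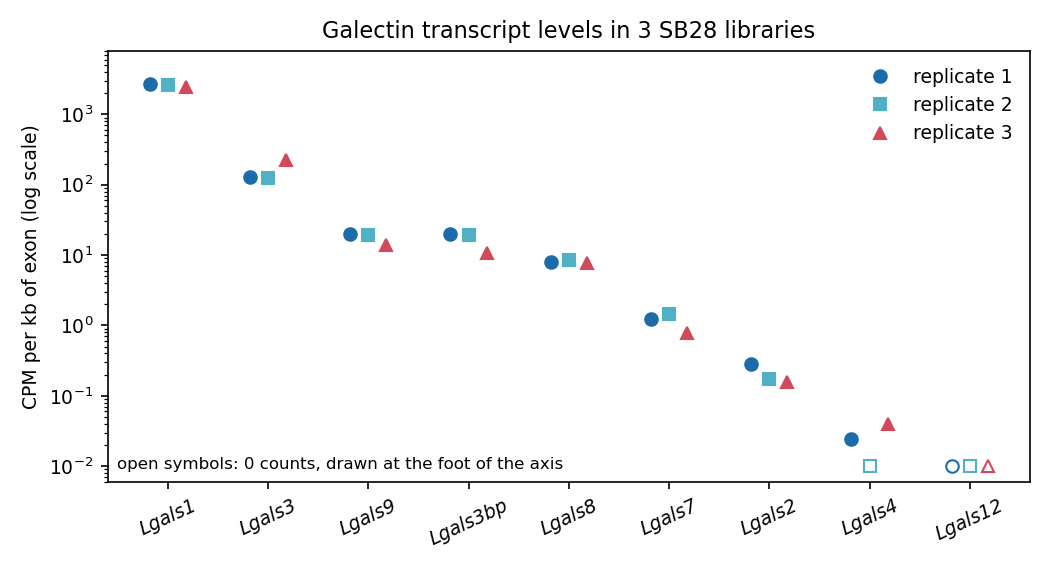
Level of each of the 9 members in CPM per kb of exon (log axis), with 1 symbol per replicate library. Members run from Lgals1 near 2591 CPM per kb to Lgals12 with 0 counts, and open symbols stand for 0 counts.

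Galectin-1, encoded by Lgals1, is known in glioma cells and can kill or silence activated T cells when secreted. Lgals1 stood at 2432, 2381 and 2205 CPM, and 2693, 2637 and 2442 CPM per kb. After TMM scaling, a trimmed-mean correction of library size, the highest library was 1.10 times the lowest. The mean of 2339 ± 119 CPM (SD, n = 3) ranked 20 among all gene lines, and per kb Lgals1 ranked 4 among detected protein-coding genes. Lgals1 lies on chromosome 15 at 78926725 to 78930465 (GRCm38) with 903 bases of exon. Its annotated transcripts shared none of their 903 stretches of 50 bases exactly with the transcripts of another gene. The genes nearest to it by level per kb over the 3 libraries were the actin Actg1 (distance 0.57 on the log2 scale) and the ribosomal protein gene Rplp1 (0.72).

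The other galectins with a single domain and no tail, Lgals7 and Lgals2, were close to absent. Lgals7, known from stratified epithelia such as skin, had 41, 39 and 24 counts, or 1.14, 1.35 and 0.735 CPM. The exact 95% Poisson interval of its pooled level was 0.870 to 1.29 CPM, which covers counting error only. The keratinocyte keratin genes Krt5 and Krt1 had 0 counts and Krt14 had 1, whereas Krt10 was detected at 1.91 ± 0.108 CPM (SD, n = 3). Lgals2, a galectin of the gut, had 6, 3 and 3 counts, 0.123 CPM pooled (0.0635 to 0.215). In the annotation 38 of its 592 exon bases overlap Cdc42ep1 on the opposite strand, and since no strand setting is stated, reads of the pair cannot be told apart there.

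Galectin-3, encoded by Lgals3, was the only one of the 6 members tested that was highest in replicate 3. Lgals3 is a marker of macrophages and a product of many tumour cells, and it gathers on ruptured lysosomes. It stood at 236, 229 and 415 CPM, with replicate 3 above both others, and at 127, 123 and 223 CPM per kb. Replicate 3 was 1.77 times replicate 1 and 1.83 times replicate 2 after TMM scaling, and replicate 2 was 0.966 times replicate 1. The mean was 293 ± 105 CPM (SD, n = 3), and 233 CPM without replicate 3. The range over libraries, 0.87 on the log2 scale, was wider than in 93.9% of detected genes. The genes nearest to it by level per kb were Cnbp and Kpnb1, with distances of 0.26 and 0.32 on the log2 scale. In bulk RNA, more cells that express a gene and more of its RNA per cell cannot be told apart. Lgals3 lies on chromosome 14 at 47367751 to 47386160, in 8 exon blocks.

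Macrophage transcripts were few in every library. Of 15 macrophage and microglia markers, 2 were detected (Tmem119 and Cd68), against 46.6% of all gene lines. The other 13 lay below 1 CPM in all libraries, against 51.3% of all gene lines. Aif1, Adgre1, C1qa, C1qb and Tyrobp had 0 counts, and Csf1r reached 0.201 ± 0.102 CPM (SD, n = 3). The summed level of the list was 81.5, 75.1 and 45.5 CPM, lowest in replicate 3, and mostly Tmem119 (75.6, 69.7 and 41.2 CPM). The 7 lymphocyte markers summed to 0.389, 0.138 and 0 CPM.

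Lgals3bp differed between libraries in the opposite direction to Lgals3. It stood at 57.2, 54.4 and 30.6 CPM, with replicate 3 below both others, and at 20.1, 19.1 and 10.8 CPM per kb. Replicate 3 was 0.538 times replicate 1 and 0.567 times replicate 2. The mean was 47.4 ± 14.6 CPM (SD, n = 3), and 55.8 CPM without replicate 3. Its range of 0.89 on the log2 scale was wider than in 94.3% of detected genes. The genes nearest to it by level per kb were Rdh11 and Dhcr7, with distances of 0.11 and 0.12. The ratio of Lgals3 to Lgals3bp per kb was therefore 6.33 and 6.44 in replicates 1 and 2 and 20.8 in replicate 3. Lgals3bp lies on chromosome 11 at 118392751 to 118402092, in 6 exon blocks.

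**Figure D2:**
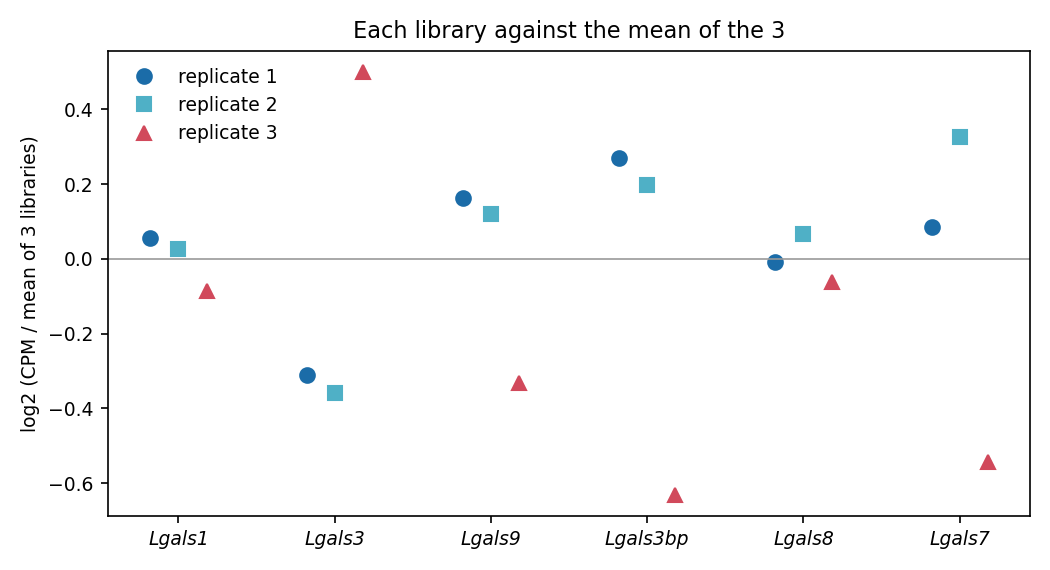
Log2 of each library's CPM over the mean of the 3 libraries, for the 6 members with a mean count of 10 or more. Replicate 3 lies above 0 for Lgals3 and below it for Lgals1, Lgals9, Lgals3bp, Lgals8 and Lgals7, where the shifts of Lgals8 and Lgals7 did not pass the test.

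Galectin-9, a tandem-repeat galectin known as a ligand of the T cell receptor TIM-3 and as a gene induced by interferon, was detected at a moderate level. Lgals9 stood at 42.3, 41.0 and 30.0 CPM, and at 19.8, 19.2 and 14.0 CPM per kb. Replicate 3 was again below both others, at 0.713 times replicate 1 and 0.737 times replicate 2. The mean was 37.7 ± 6.76 CPM (SD, n = 3), and 41.6 CPM without replicate 3. Lgals9 lies on chromosome 11 at 78962974 to 78984946, in 11 exon blocks. The genes nearest to it by level per kb were Col18a1 and Acvr1, with distances of 0.03 and 0.04 on the log2 scale.

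Lgals9 and Lgals3bp are both known as interferon-induced genes, and the interferon-stimulated list was lower in the same library. Of its 12 genes, 9 were detected, against 46.6% of all gene lines. All 12 varied beyond counting noise (adjusted chi-square test) with replicate 3 as the lowest library, against 31.5% of all genes tested. The list summed to 229, 229 and 127 CPM. Isg15, a ubiquitin-like protein, stood at 19.5, 20.4 and 5.24 CPM, and Ifit1, which binds viral RNA, at 37.5, 37.7 and 17.9 CPM. The median of log2 differences of replicate 3 from replicate 1 was −1.66 over the list and 0.00 over all genes tested. The part of interferon signalling in the lower Lgals9 and Lgals3bp levels was not tested.

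Galectin-8, which binds sugars exposed on damaged vacuoles and marks them for autophagy, had the narrowest range over libraries of the 5 detected members. Lgals8 stood at 29.4, 31.0 and 28.4 CPM, and at 7.97, 8.41 and 7.69 CPM per kb, with a mean of 29.6 ± 1.33 CPM (SD, n = 3). After TMM scaling the highest library was 1.08 times the lowest, a range wider than in 19.0% of detected genes. Lgals8 lies on chromosome 13 at 12439415 to 12464944, in 12 exon blocks, and 155 of its 3688 exon bases (4.20%) overlap Heatr1 on the opposite strand, so reads there cannot be assigned by strand. The genes nearest to it by level per kb were Igf2bp3 and Mon2.

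The remaining tandem-repeat galectins were not expressed at a level these libraries could measure. Lgals4, a galectin of gut epithelium, had 2, 0 and 3 counts, 0.0512 CPM pooled (exact Poisson interval 0.0166 to 0.120). Lgals12, a galectin of fat cells, had no count in any library, and a count of 0 leaves room for 0.0833, 0.103 and 0.0919 CPM in replicates 1, 2 and 3. The gut genes Vil1, Epcam and Cdx1 had 2, 11 and 0 counts, while Cdh17 was detected at 2.31 ± 0.185 CPM (SD, n = 3). The fat cell genes Plin1, Lep and Cidec had 0 counts, Adipoq had 2 and Fabp4 had 19. Among relatives that are no members, the galectin-like gene Lgalsl was detected (50.5, 53.0 and 42.4 CPM) and the lens gene Grifin had 3 counts in all. Lgals6 had 0 counts, but its symbol matched no gene model of the GENCODE annotation, so this 0 may not measure expression.

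The order of the members by mean CPM per kb was Lgals1 (2591 ± 132), Lgals3 (158 ± 56.7), Lgals9 (17.7 ± 3.17), Lgals3bp (16.6 ± 5.13), Lgals8 (8.02 ± 0.360) and Lgals7 (1.16 ± 0.335; SD, n = 3). Ratios were taken within each library for 10 pairs and called larger than the spread where no library reversed the ratio and the mean log2 ratio was above 2 SD in size. Lgals1 lay 17.1-fold above Lgals3 (10.9 to 21.4 over libraries), a difference larger than the spread. Lgals3 lay 8.69-fold above Lgals9 (6.42 to 15.9), also larger than the spread. Lgals9 and Lgals3bp were not separated beyond the spread, at a ratio of 1.09 (0.985 to 1.30).

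Lower in the order, Lgals3bp lay 2.0-fold above Lgals8 (1.40 to 2.52). That call was lost without replicate 1 (0.83 on the log2 scale), without replicate 2 (0.91) and with replicates 1 and 2 averaged (0.87), so this neighbouring pair was not firmly separated. Lgals8 lay 7.04-fold above Lgals7 (5.72 to 9.51). Lgals8 stood at 0.459 times Lgals9 (0.403 to 0.549), and at 0.793 times without length correction, where the call was lost. Lgals1 lay 148-fold above Lgals9 (136 to 174), and Lgals3 lay 18.9-fold above Lgals8 (14.6 to 29.0). The exact two-sided sign-flip permutation test gave p = 0.25 for 9 pairs (0.278 adjusted over the 10 pairs) and 0.75 for Lgals9 and Lgals3bp, and 0.25 is the smallest p that 3 libraries allow.

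The variation of the members between libraries was tested for every gene by chi-square on the 3 TMM-scaled counts, adjusted by Benjamini-Hochberg over all 12737 genes with a mean count of 10 or more. Of the 6 members tested, 4 varied beyond counting noise (Lgals1, Lgals3, Lgals3bp and Lgals9), against 65.7% of all genes tested. That share is near the background and says nothing particular of galectins. Of the 6, 3 varied and were lowest in replicate 3, against 31.5% of all genes tested, and 1, Lgals3, varied and was highest there, against 33.1%. Adjusted chi-square p-values were 1.45e-62 for Lgals3bp, 9.42e-17 for Lgals9 and 1.66e-76 for Lgals1, whose change was small but rests on many counts. For Lgals8 and Lgals7 the adjusted values were 0.269 and 0.0911. The test weighs libraries against counting noise only, and without replicate 3 the number of members that varied was 1, Lgals1.

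By size, Lgals3 and Lgals3bp had wider ranges than the other detected members. Replicate 3 lay 1.5-fold or more above both other libraries, beside a passed test, for 5.48% of genes tested, Lgals3 among them. It lay 1.5-fold or more below both for 8.71%, Lgals3bp among them. This threshold was chosen after the values were seen. Lgals7 was lower in replicate 3 by a similar factor, 0.650 and 0.551 times the others, on 24 counts.

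**Figure D3:**
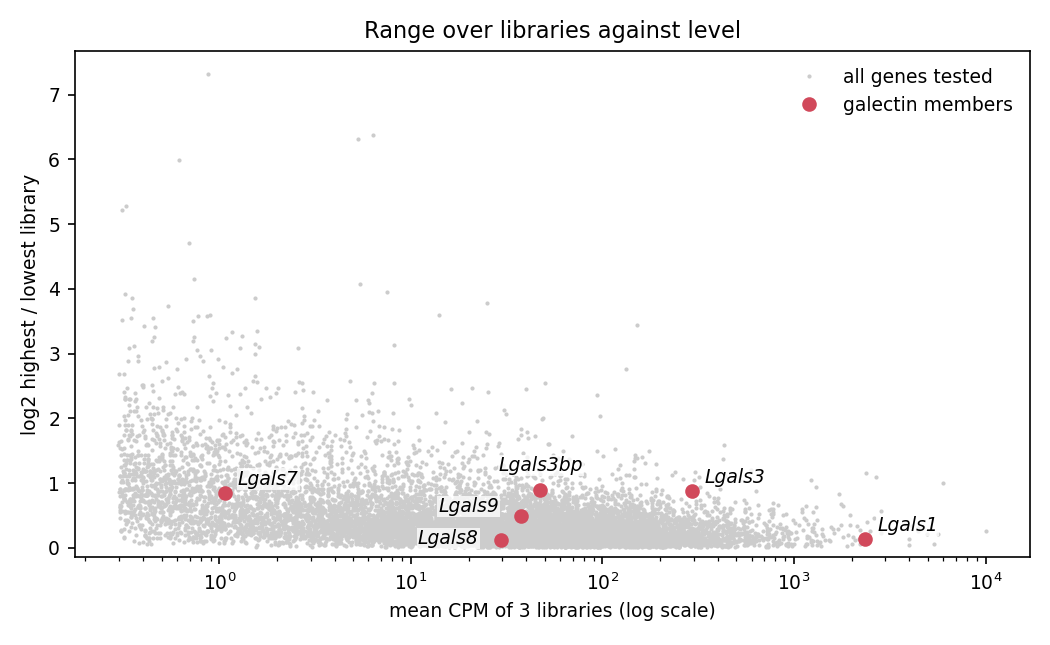
Log2 of the highest over the lowest library after TMM scaling against mean CPM (log axis), for the 12737 genes tested (grey) and the 6 members among them (red). Lgals3 and Lgals3bp lie at 0.87 and 0.89, in the upper part of genes of their level, and Lgals8 and Lgals1 at 0.12 and 0.13, near the foot of the axis.

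The makeup of the galectin pool followed from these values. Lgals1 made up 88.7%, 88.7% and 82.3% of all galectin counts in replicates 1, 2 and 3, with exact Clopper-Pearson 95% intervals of 88.5 to 88.9, 88.5 to 89.0 and 82.0 to 82.6. Lgals3 made up 8.62% (8.45 to 8.80), 8.53% (8.33 to 8.73) and 15.5% (15.2 to 15.7). Per length of exon the share of Lgals3 was 4.46%, 4.41% and 8.31%. The intervals cover counting error only, since PCR copies are not independent molecules. Lgals9 held 1.54%, 1.53% and 1.12% of galectin counts, and Lgals8 held 1.07%, 1.16% and 1.06%.

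Galectins act through the sugars that other enzymes build, and these enzymes were expressed. All 11 genes of a list for building branched, galactose-bearing glycans were detected, against 46.6% of all gene lines. They were led by the Golgi mannosidases Man2a1 (565 ± 97.3 CPM) and Man2a2 (138 ± 18.5), the branching enzyme Mgat4b (123 ± 2.75) and the galactosyltransferase B4galt1 (118 ± 14.5; SD, n = 3). Mgat5, which adds the branch that galectin-3 binds well, was low at 16.2, 16.4 and 12.8 CPM. Gcnt1, chosen after its values were seen, was the lowest of the 11 at 2.89, 2.41 and 2.54 CPM. Of the 11, 9 varied against 65.7% of all genes tested, 6 varied with replicate 3 lowest against 31.5%, and 3 with replicate 3 highest against 33.1%. The median range was 0.30 on the log2 scale, as over all genes (0.30).

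Of 3 genes that limit galectin binding, 2 were detected and both varied with replicate 3 lowest, against 31.5% of all genes tested. Mgat3, whose bisecting sugar hinders branching, stood at 40.7, 42.3 and 23.1 CPM. St6gal1, whose sialic acid cap blocks galectin-1, stood at 38.6, 34.6 and 17.2 CPM. After TMM scaling, replicate 3 was 0.570 times replicate 1 and 0.549 times replicate 2 for Mgat3. For St6gal1 it was 0.447 and 0.499 times. St6gal2 had 0 counts. Per kb, Mgat5 stood at 0.200 times Mgat3 (range 0.176 to 0.252), larger than the spread, and at 0.441 times without length correction.

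Surface and matrix glycoproteins that carry galectin ligands were abundant. Of 17 such genes, 16 were detected, against 46.6% of all gene lines, and Muc1 was split between libraries (0.997 ± 0.156 CPM). Fibronectin, Fn1, stood at 2837, 2896 and 2099 CPM and the integrin chain Itgb1 at 2617, 2636 and 1987 CPM, both lowest in replicate 3. The hyaluronan receptor Cd44 reached 870.1 ± 75.05 CPM, and the lysosomal membrane protein Lamp1, a carrier of galectin-3 ligands, 761 ± 45.7 CPM (SD, n = 3) with its highest value in replicate 3 (814 CPM). Of the 17, 14 varied (65.7% of all genes tested), 11 varied and were lowest in replicate 3 (31.5%), and 3 varied and were highest there (33.1%). Mcam, an adhesion molecule that binds galectins and was chosen after its values were seen, had the widest range of the list at 30.0, 29.2 and 7.63 CPM.

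Receptors of galectins on immune cells were close to absent. None of 8 genes was detected in all libraries, against 46.6% of all gene lines. Spn, encoding CD43, and Havcr2, encoding TIM-3, were split: Spn stood at 1.89, 1.66 and 0.582 CPM, and Havcr2 at 0.722, 0.690 and 2.27 CPM on 120 counts in all. Of the 3 genes tested, these 2 varied, in opposite directions, against 65.7% of all genes tested, so this share was near the background. Ptprc, encoding CD45, had 25 counts, Lag3 had 33, Itgam had 6 and Cd7 had 1, and Cd2 and Pdcd1 had 0, under the same limit as Lgals12.

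**Figure D4:**
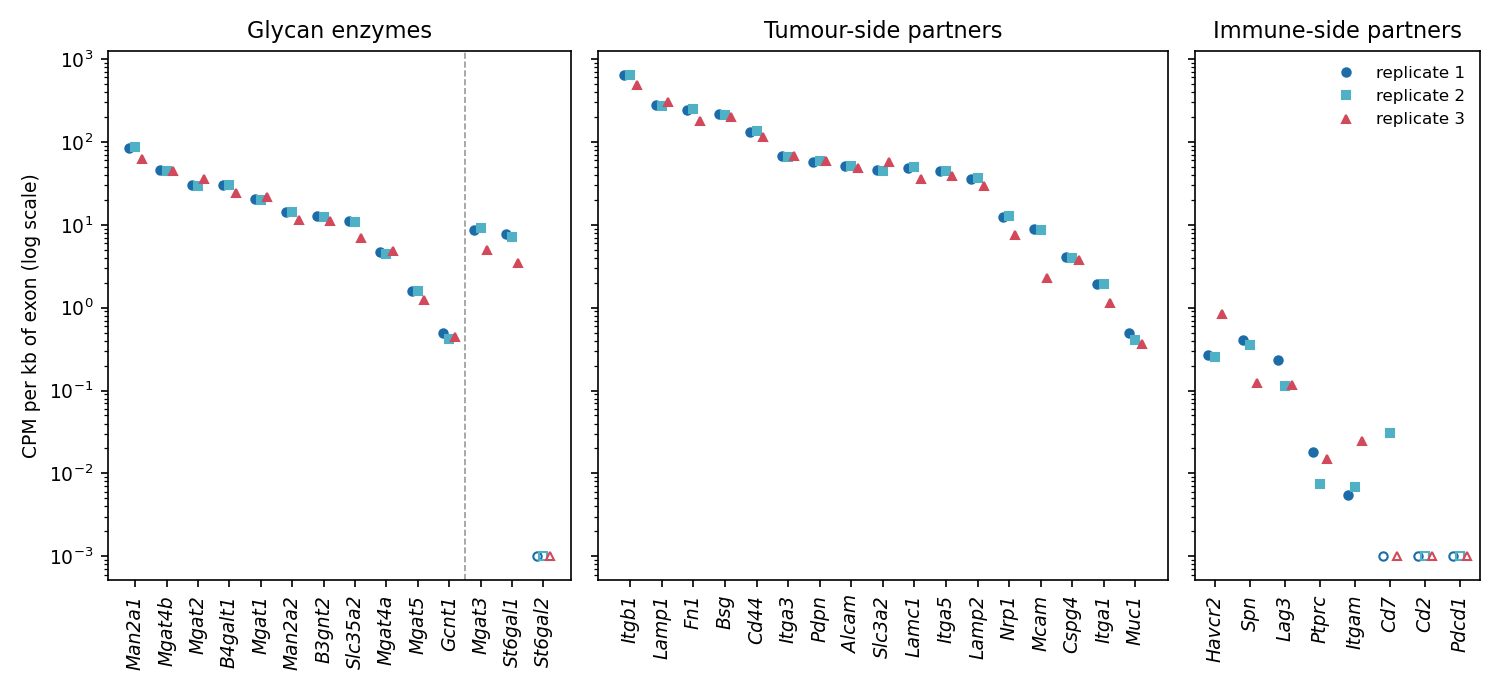
CPM per kb of exon (log axis) in each library for genes that build or limit galectin ligands (left, parted by a dashed line), glycoproteins of the tumour side (middle) and receptors of immune cells (right). Tumour-side genes lie between Itgb1 at a mean of 591 and Muc1 at 0.425 CPM per kb, immune-side genes lie below 1, and open symbols stand for 0 counts.

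Of 8 genes that work with galectins at damaged membranes, 7 were detected, against 46.6% of all gene lines. The autophagy receptor Sqstm1 (461 ± 64.4 CPM), the ESCRT adaptor Pdcd6ip (356 ± 6.34), the autophagy receptor Tax1bp1 (175 ± 12.3) and the ESCRT subunit Chmp4b (170.4 ± 7.54; SD, n = 3) led the list. Calcoco2, known in human cells as an autophagy receptor that binds galectin-8, had 2 counts, both in replicate 1. Trim16, a galectin-3 partner chosen after its values were seen, stood at 72.2, 73.9 and 106 CPM, highest in replicate 3 as Lgals3 was. Of the 7 genes tested, 6 varied (65.7% of all genes), 3 with replicate 3 lowest (31.5%) and 3 with it highest (33.1%). Over the 6 lists of galectin relatives, glycan enzymes and partners, 37 of 50 genes were detected, against 46.6% of all gene lines.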

How the data were processed

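RNA-seq of 3 SB28 libraries was analysed. The authors deposited raw counts by gene symbol in 3 files. Tools named in the submitters' processing notes are HTSeq, with no version, and Bowtie2 2.2.4, on mm10, with no role, option or strand setting. Each file has 24421 gene lines and 5 summary lines. Reads at more than 1 position (8.93%, 8.86% and 9.58% of all lines' counts) and in no gene (5.19%, 5.27% and 6.54%) were left out of library sizes, so near-identical genes can be undercounted.

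CPM was computed over assigned counts, and the depth gave limits of 0.0833, 0.103 and 0.0919 CPM for 0 counts (3 counts). Lengths and positions came from GENCODE M21 (GRCm38): 23350 symbols matched directly, 669 through RefSeq synonyms and 402 did not. Pair ratios had 0.5 counts added, and neighbours were taken among members with a mean count of 10 or more. TMM factors came from edgeR 4.0.16, and DESeq2 1.42.0 size factors, other thresholds, lengths and left-out libraries were alternatives. The chi-square step was run on counts simulated with counting noise only. That setting leaves out the wider spread of these libraries (common dispersion 0.029), so it does not bear on the calls made here. Work ran in R 4.3.3 and in Python 3.11.15 with scipy 1.17.1, numpy 2.4.6, matplotlib 3.10.9 and pandas 2.3.3.

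The members, lists and pairs were chosen with earlier results of these data known. Named are all members and relatives, the 4 genes of highest mean CPM and those below 1 CPM of each list, all glycan-limiting and immune-side genes, pair genes, overlapping genes and the 2 nearest genes by Euclidean distance over log2(CPM per kb + 1); further names are marked as chosen later, apart from markers given as a check.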

Additional observations from a re-analysis of the deposited data

How the results depend on the processing

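The number of members detected was 5, and 6 at 0.5 CPM and without replicate 3. The number of members that varied was 4 and ranged from 1 to 5 when each library was left out, with the value of 1 without replicate 3 and of 5 without replicate 1, where Lgals7 passed the test (adjusted chi-square p = 0.0316). It was 4 with DESeq2 size factors, with total counts and with replicates 1 and 2 averaged. Of the pair ratios on the log2 scale, Lgals8 to Lgals9 was −1.12 and lost its call without length correction (−0.33). Lgals3bp to Lgals8 was 1.00 and lost its call without length correction (0.63) and with replicates 1 and 2 averaged (0.87), with a range of 0.83 to 1.26 when each library was left out. Lgals9 to Lgals3bp was 0.12 and turned to −0.29 without length correction and to −0.0082 without replicate 3, with a range of −0.0082 to 0.19 over left-out libraries. The cause of these changes was not tested, other than that length correction shifts each ratio by a constant. The other 7 pairs kept direction and call under all alternatives run. No paired analysis was possible because the study has 1 group. Depth limits Lgals2, Lgals4, Lgals7 and Lgals12, each under 50 counts per library.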
